A study of Mus musculus with 3 samples.

Results

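The interferon-induced effector genes followed here are 38 mouse genes that cells switch on in response to interferon. They were named gene by gene as a list of known interferon-induced effectors and regulators, and every row of the peak lists within 50 kb of the body of one of these genes on GRCm38 was taken as its window. The genes were chosen with earlier results of these data known. They are 38 genes beside 21887 protein-coding genes in the annotation. All but Oas1b, a transcribed pseudogene in this annotation, are protein-coding, and every one had at least 1 peak in both lists. Several of them lie in clusters and share peaks, so the 38 windows joined into 23 separate regions, of which 6 held 21 of the genes. Those regions held 116 of the 38793 peaks of the post-caerulein list and 130 of the 37765 peaks of the untreated list.

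Acetylation of lysine 27 of histone H3 (H3K27ac), a mark found at active promoters and enhancers, was mapped by chromatin immunoprecipitation and sequencing in pancreatic spheroids, epithelial cultures grown in 3 dimensions. One group came from C57BL/6J wild-type mice after caerulein treatment, the other from untreated C57BL/6J wild-type mice, and both are labelled as pancreatic epithelial cells. Caerulein is a cholecystokinin analogue that makes the pancreas digest and inflame itself, and the study asked what the epithelium keeps once that inflammation has passed. The number of animals behind a culture, their age and the time since caerulein are not stated in the labels. For each condition there is a single H3K27ac library with its peak list, and the remaining library of the series, the input of untreated spheroids, was not used here. No difference below therefore has a replicate check and none has a p-value. Depth is unknown, because the lists hold peak positions and a score but no read counts.

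Type I interferons bind a receptor at the cell surface whose kinases set off signalling to the nucleus. The factor ISGF3, which contains STAT2 and IRF9, then binds interferon-stimulated response elements (ISREs) in promoters, whereas signalling from interferon gamma acts through gamma-activated sites (GAS). The genes so induced sense or destroy viral RNA, block its translation, trap virus particles or regulate the response itself, and many stay active at a low level in unstimulated epithelium. Chromatin marks at such genes are known to outlast a first interferon or inflammatory signal in several cell types.

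The promoters of the genes on which the results turn are shown first, because the H3K27ac peaks over some of them were listed in 1 condition alone and others were listed in both. RefSeq promoter sequences of GRCm38.p6 were available for 30 of the 38 genes. Printed are the 150 bases before the transcription start, on the strand of the gene, with every ISRE core match in capitals. The core searched was GAAA, any 2 bases and GAAA, on either strand, so that a match on the other strand reads as TTTC, any 2 bases and TTTC. Overlapping matches are run together in the capitals. The first 3 promoters held an ISRE match under an untreated peak and under no post-caerulein peak. They are Oas1a (chr5:120907526-120907675, minus strand), Oas1g (chr5:120887614-120887763, minus strand) and Gbp3 (chr3:142559894-142560043, plus strand).
Oas1a: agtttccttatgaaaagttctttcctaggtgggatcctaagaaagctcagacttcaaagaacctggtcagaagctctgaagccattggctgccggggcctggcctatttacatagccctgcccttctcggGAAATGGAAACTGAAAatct
Oas1g: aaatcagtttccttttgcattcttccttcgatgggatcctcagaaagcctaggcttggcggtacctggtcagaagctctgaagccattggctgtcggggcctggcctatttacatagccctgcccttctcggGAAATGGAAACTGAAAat
Gbp3: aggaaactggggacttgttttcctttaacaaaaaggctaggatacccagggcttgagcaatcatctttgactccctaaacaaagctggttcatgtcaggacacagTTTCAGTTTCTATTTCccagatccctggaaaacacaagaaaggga
The next 3 held a match that lay under a peak in both lists. They are Oas1c (chr5:120812515-120812664, minus strand), Bst2 (chr8:71537473-71537622, minus strand) and Ifit1 (chr19:34640739-34640888, plus strand).
Oas1c: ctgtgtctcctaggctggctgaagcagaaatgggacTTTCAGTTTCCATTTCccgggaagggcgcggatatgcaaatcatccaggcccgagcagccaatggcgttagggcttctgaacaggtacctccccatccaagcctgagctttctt
Bst2: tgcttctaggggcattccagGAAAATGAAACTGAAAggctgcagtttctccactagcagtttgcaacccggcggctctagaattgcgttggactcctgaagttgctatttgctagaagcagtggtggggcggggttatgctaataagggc
Ifit1: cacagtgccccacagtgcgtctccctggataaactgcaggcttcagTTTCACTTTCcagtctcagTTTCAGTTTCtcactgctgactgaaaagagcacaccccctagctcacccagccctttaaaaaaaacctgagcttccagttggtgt
The last pair comes from the Oasl cluster and held no match in this window, with a peak over it in both lists. They are Oasl1 (chr5:114923090-114923239, plus strand) and Oasl2 (chr5:114896784-114896933, plus strand).
Oasl1: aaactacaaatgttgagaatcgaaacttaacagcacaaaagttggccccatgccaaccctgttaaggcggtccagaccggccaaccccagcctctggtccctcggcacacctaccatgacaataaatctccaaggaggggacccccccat
Oasl2: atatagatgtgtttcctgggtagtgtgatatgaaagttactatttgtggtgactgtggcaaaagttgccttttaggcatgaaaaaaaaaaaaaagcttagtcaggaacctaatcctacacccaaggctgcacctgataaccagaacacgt

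An ISRE core was found in the promoter window, 250 bases before to 50 bases after a start, of 16 of the 30 genes (53.3%), against 689 of all 17492 genes with a RefSeq start (3.94%). The GAS core, TTC, any 3 bases and GAA, was found at 8 of the 30 (26.7%), against 8.92% of all genes, and 4 of the 30 held both. Of the 30, 10 held neither, and no match says only that these letters are not in the window. At Oas1a and Oas1g the overlapping matches began 20 and 18 bases before the start. Those 2 promoters were 88.8% identical over 294 aligned bases, and the promoters of Ifit3 and Ifit3b were 99.6% identical over 260. Reads from such copies can be placed on either, and the labels do not say how such reads were treated, so values at Oas1a, Oas1g, Ifit3 and Ifit3b are uncertain on that ground.

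H3K27ac covered less of the window at 36 of the 38 genes in post-caerulein spheroids than in untreated spheroids. Over all 17183 protein-coding genes with a peak in the window, 48.0% were less covered and 52.0% more covered after caerulein. The count of genes less covered was chosen as a summary after seeing the data. Covered length was the number of kilobases of the window under a peak, and its log2 ratio, post-caerulein over untreated, used a pseudocount of 1 kb. The median ratio was -0.30 over the 38 genes and 0.01 over all genes. The most negative was -1.86 at Oas1g, and the highest were 0.23 at Ifit1 and 0.03 at Isg20, the 2 genes that were more covered after caerulein. With a window of 100 kb, Usp18, Ifi35 and Ifit3b were more covered as well, and 33 of the 38 were less covered. With peaks not below their own list's median score 32 were less covered, and the windows of Oas1a, Oas1g, Gbp2 and Gbp9 then held no peak in either list. A ratio of 1.5 or more toward the post-caerulein list was reached at 0 of the 38 genes, where 7.16% of all genes reached it. A ratio of 1.5 or more toward the untreated list was reached at 9 of the 38, where 6.85% of all genes reached it. These were Oas1a, Oas1b, Oas1c, Oas1g, Oasl1, Oasl2, Gbp5, Gbp7 and Usp18, of which 6 lie in the Oas and Oasl clusters, so without those clusters 3 of 30 were left. With a pseudocount of 5 kb the count was 4, with a ratio of 2 it was 3, and with peaks found in 1 list alone left out it was 3. Gbp5 and Gbp7 counted the same peaks, and their joined region with Gbp3 and Gbp2 fell short of the ratio of 1.5 (log2 ratio -0.54). The 9 genes are thus not 9 separate regions.

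**Figure D1:**
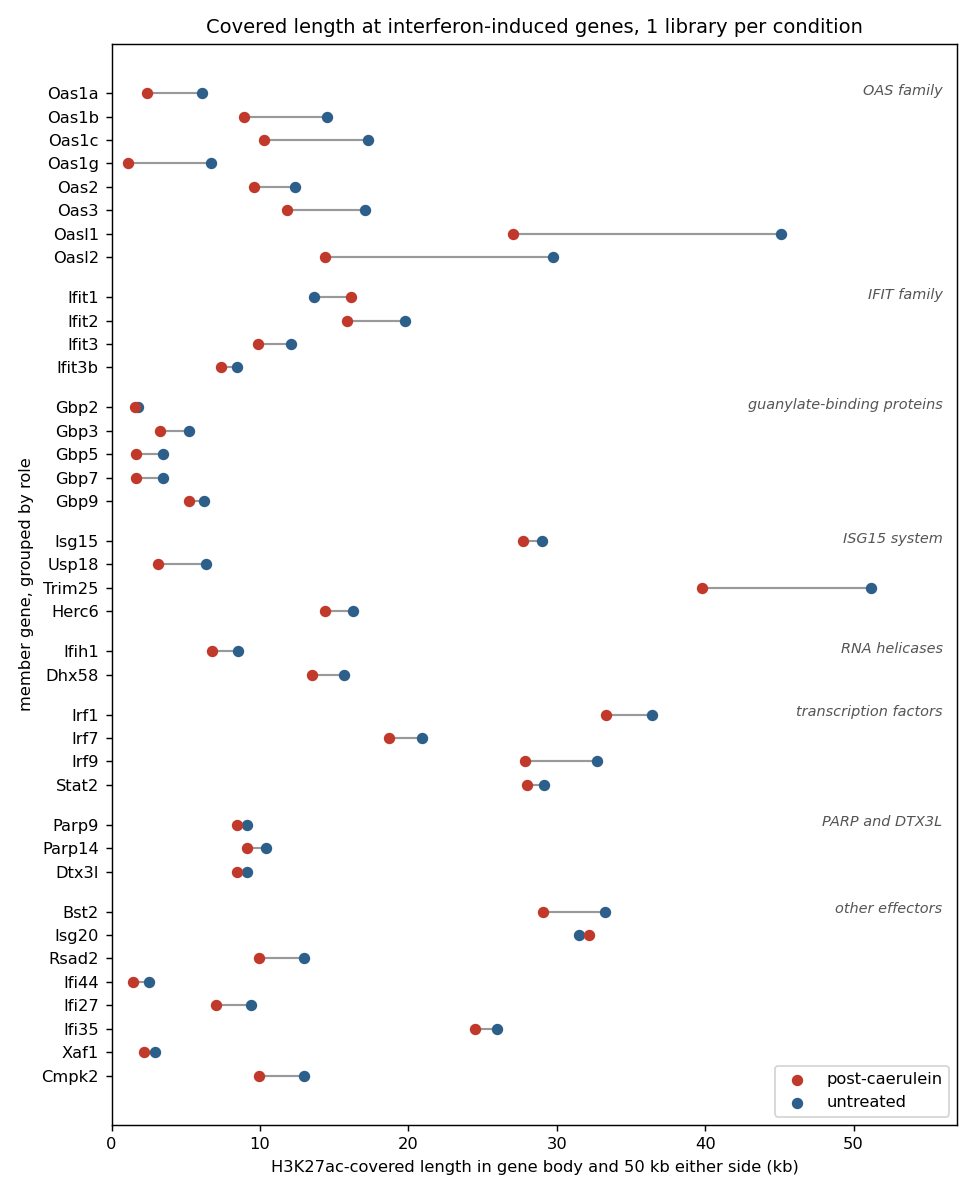
H3K27ac-covered length in kilobases (x axis) in the gene body and 50 kb on either side of each of the 38 genes (y axis, grouped by role), with a red point for the post-caerulein library and a blue point for the untreated library. The red point lies left of the blue point at 36 genes and right of it at Ifit1 and Isg20, and the longest connecting line is that of Oasl1 (27.1 kb post-caerulein, 45.1 kb untreated).

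Counting each stretch of the genome once gave the same direction. The 23 joined regions held 411.9 kb under post-caerulein peaks and 492.2 kb under untreated peaks, a difference of -80.3 kb (-16.3%), while the genome as a whole had 4.31% more covered length after caerulein. Of the 23 regions, 22 were less covered after caerulein and 1, around Isg20, was more covered. The difference was larger close to the genes. Within 5 kb of the bodies, 159.8 kb were covered in post-caerulein spheroids and 211.0 kb in untreated spheroids (-24.2%). Farther out the regions held 252.0 kb post-caerulein and 281.2 kb untreated (-10.4%). The Oas and Oasl regions together made up 36.7% of the whole difference. Inside the gene bodies themselves coverage was lower after caerulein at 34 of the 38 genes, against 36.2% of all genes with a peak in the window. That share counts genes whose body holds no peak in either list and so could not be lower, which widens the contrast.

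**Figure D2:**
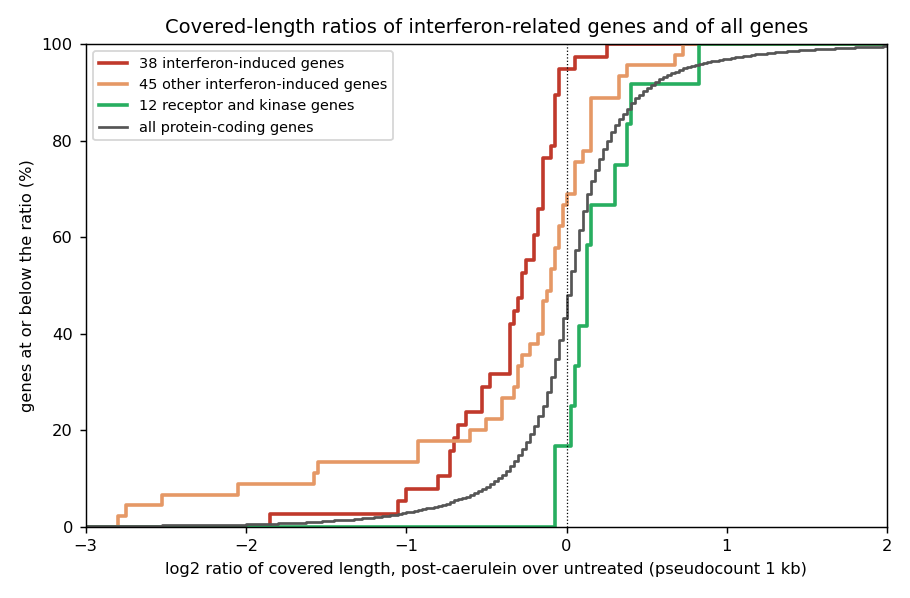
Cumulative share of genes in percent (y axis) at or below a log2 ratio of covered length, post-caerulein over untreated with a pseudocount of 1 kb (x axis), for the 38 interferon-induced genes in red, 45 other interferon-induced genes in orange, 12 receptor, kinase and signalling genes (Mavs and Irf3 among them) in green and all 17183 protein-coding genes with a peak in grey. The red curve lies left of the grey curve, with medians of -0.30 and 0.01, and the green curve lies mostly to the right of 0, with a median of 0.11.

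In these regions few post-caerulein peaks lacked a counterpart in the other list. Untreated peaks lacked one at a share close to that of their whole list. A peak was called post-caerulein-only or untreated-only when no peak of the other list overlapped it by 1 bp or more. Of the 116 post-caerulein peaks 3 lacked a counterpart (2.59%, with an exact 95% interval of 0.537 to 7.37), against 17.5% of the whole post-caerulein list. Of the 130 untreated peaks 21 lacked one (16.2%, with an interval of 10.3 to 23.6), against 14.3% of the whole untreated list. These intervals cover counting error over peaks only and are no test. They treat peaks as independent draws, whereas the peaks are neighbours in 23 regions of 1 library per condition. The Oasl region alone held 5 of the 21 untreated-only peaks. Post-caerulein-only peaks outnumbered untreated-only peaks at 1 gene, Ifit1, against 30.2% of all genes. Untreated-only peaks outnumbered post-caerulein-only peaks at 18 of the 38 genes, against 27.2% of all genes, with 11 of 30 left without the Oas and Oasl clusters. These counts moved with the settings: a window of 10 kb gave 0 post-caerulein and 11 untreated, a window of 100 kb gave 6 post-caerulein and 21 untreated, and peaks not below their own list's median score gave 0 post-caerulein and 2 untreated. Most of these peaks were weak. The score of the 3 post-caerulein-only peaks was below the median of their list, and 1 of the 21 untreated-only peaks reached the median of its own list. Counted by joined region, the post-caerulein list led at 1, the untreated list at 9, 1 was tied and 12 held no such peak.

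At the transcription start most of the genes carried H3K27ac in both conditions, and the peak there was narrower after caerulein. A peak within 1 kb counted as marking a start. Of the 30 genes with a RefSeq start, 26 were marked in both lists (53.2% of all genes), 0 in the post-caerulein list alone (1.69% of all genes) and 2, Oas1a and Gbp3, in the untreated list alone (0.978% of all genes). Ifit3 and Gbp5 were marked in neither. With either end of the gene used for the 8 genes that have no RefSeq start, 34 of the 38 were marked in both lists. At all 26 genes marked in both lists the start peak was narrower in post-caerulein spheroids, whereas 48.2% of 9138 genes marked in both lists had a narrower one. The count of narrower start peaks was also chosen after seeing the data. The median width of the start peak was 2844 bp post-caerulein and 4360 bp untreated over the 26 genes. Over all genes it was 3151 bp post-caerulein and 3131 bp untreated. The log2 ratio of start peak widths ran from -1.48 to -0.03 with a median of -0.23. Several of the differences were small next to the width of the peak, such as 1677 bp post-caerulein and 1708 bp untreated at Gbp7. Where more than 1 peak lay within 1 kb of a start, as in the post-caerulein list at Isg15, their lengths were summed, so the 26 genes rested on 27 post-caerulein and 26 untreated peaks. With neighbouring peaks of a list merged across gaps of up to 1 kb, 24 of the 26 were narrower, Isg20 and Irf1 being the exceptions.

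**Figure D3:**
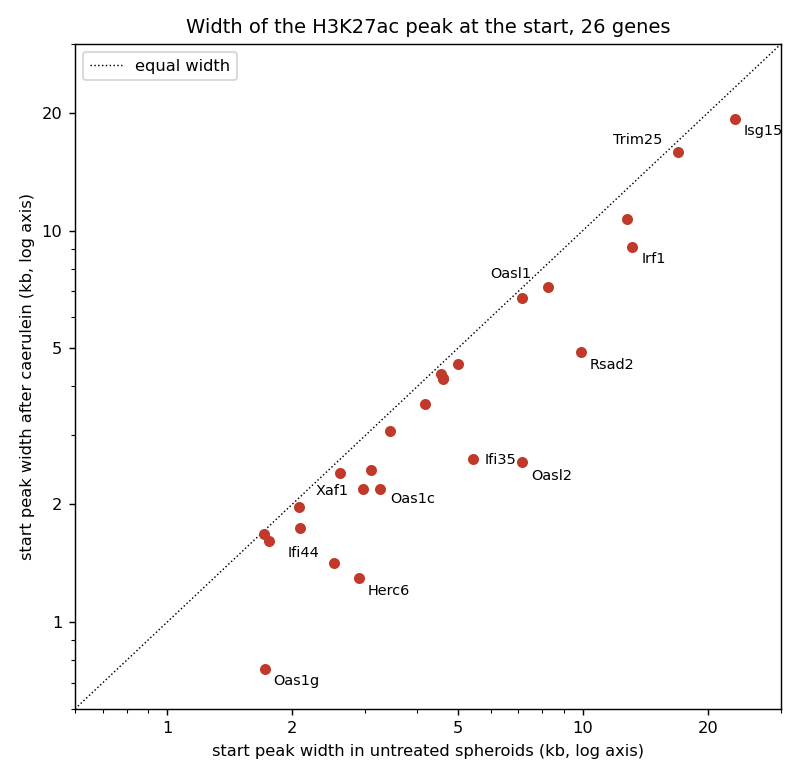
Width of the H3K27ac peak at the transcription start in post-caerulein spheroids (y axis, kb, log scale) against untreated spheroids (x axis, kb, log scale), 1 point per gene for the 26 genes marked at the start in both lists, with a dotted line of equal width. All 26 points lie below the line, farthest below it at Oasl2 (2558 bp post-caerulein, 7138 bp untreated).

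Coverage was lower on both sides of the start at most of the 26 genes. Within 5 kb upstream the median covered length over the 26 genes was 1400 bp post-caerulein and 1798.5 bp untreated, and coverage was less after caerulein at 21 and more at Oas3, Bst2, Irf1, Irf7 and Ifi35. Within 5 kb downstream it was 1896 bp post-caerulein and 2991 bp untreated, with less coverage after caerulein at 21. The other 5 could not differ there: Oasl1, Isg20, Irf1 and Trim25 were covered over the whole stretch in both lists, and Ifit3b over none of it in either. At the start itself a peak covered 80.0% of the 30 genes after caerulein and 90.0% in untreated spheroids, against 52.5% post-caerulein and 51.8% untreated for all genes. At 2 kb downstream it covered 36.7% of the 30 genes post-caerulein and 53.3% untreated, against 22.0% of all genes in each list taken alone. At 3 kb downstream the shares were 23.3% post-caerulein and 40.0% untreated, against 15.4% post-caerulein and 15.7% untreated for all genes. Peaks that matched 1 to 1 between the lists gave the same picture by place. Within 5 kb of the gene bodies 37 of 38 matched pairs were narrower after caerulein (97.4%), in the rest of the windows 43 of 61 (70.5%), and in the rest of the genome 12028 of 27098 (44.4%).

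**Figure D4:**
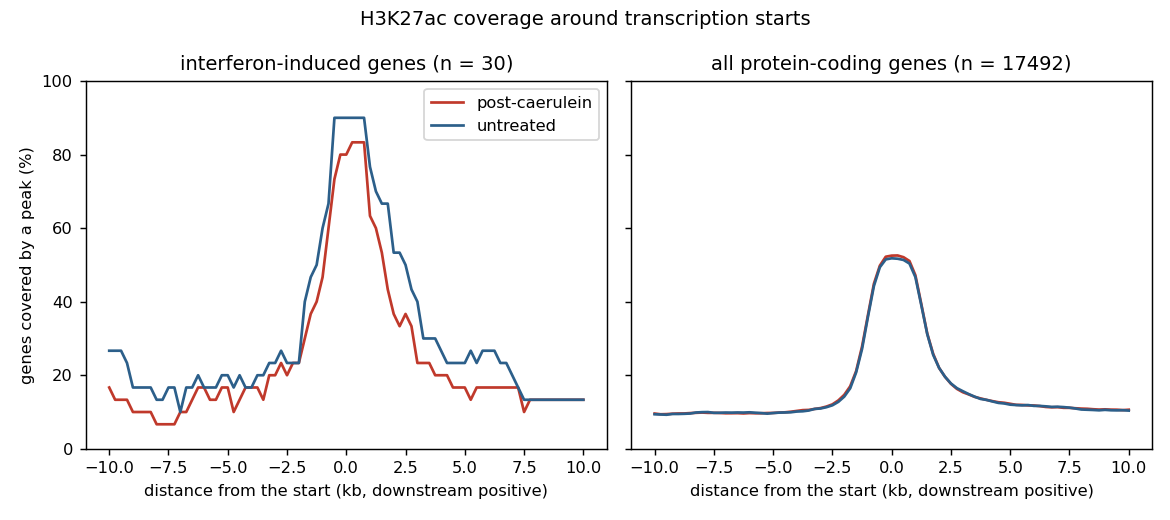
Share of genes in percent (y axis) covered by an H3K27ac peak at each distance from the transcription start in kb (x axis, downstream positive), for the post-caerulein list in red and the untreated list in blue, over 30 interferon-induced genes (left) and 17492 protein-coding genes (right). On the left the red line is lower than the blue line around the start, for example 36.7% against 53.3% at 2 kb downstream, and on the right the lines lie together.

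The OAS family had the most negative median log2 ratio of the 8 role groups, -0.71, with lower coverage after caerulein at 8 of 8 genes. OAS proteins bind double-stranded RNA and make oligoadenylates that activate RNase L, an enzyme that degrades viral and cellular RNA. Oas1a, a catalytic family member (chr5:120896256-120907544), had 2 peaks post-caerulein and 4 untreated in its window, covering 2.40 kb post-caerulein and 6.10 kb untreated (log2 ratio -1.06). Its start carried no post-caerulein peak and an untreated peak of 1730 bp (chr5:120906476-120908205), at score percentile 47.3. A score percentile ranks a peak within its own list and is not compared between lists, and peaks tied at the high score where values pile up stand at 92.1 in the post-caerulein list and 88.4 in the untreated list. The nearest post-caerulein peak lay 19.0 kb away, so the ISRE core of the Oas1a promoter printed above was under an untreated peak alone.

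Oas1g (chr5:120876142-120887613), a close copy of Oas1a, kept a start peak in both lists, 759 bp post-caerulein and 1716 bp untreated. That post-caerulein peak was among the weakest of its list, at score percentile 3.20, and the untreated peak stood at 41.3 in its own list. It ended short of the start, so that the whole 300-base promoter window with the ISRE core lay under the untreated peak and outside the post-caerulein peak. Its window was covered over 1.13 kb post-caerulein and 6.71 kb untreated, by 2 peaks post-caerulein and 4 untreated, and 0.629% of all genes had a lower ratio. Its 2 untreated-only peaks were the one at the Oas1a start and a peak of 2692 bp between Oas1g and Oas1b (chr5:120843756-120846447).

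Oas1c (chr5:120800194-120812540) and Oas1b (chr5:120812635-120824163) are neighbours and share a peak between them. Mouse Oas1b is known for resistance to flaviviruses, which is lost in many laboratory strains through a premature stop codon. The shared peak, at the Oas1c start and 1 end of Oas1b, was 2191 bp post-caerulein and 3248 bp untreated, at score percentile 64.5 post-caerulein and 74.4 untreated. It covered the ISRE core of Oas1c in both. The Oas1c window held 3 peaks post-caerulein and 5 untreated, over 10.3 kb post-caerulein and 17.3 kb untreated. The Oas1b window held 2 peaks post-caerulein and 4 untreated, over 8.91 kb post-caerulein and 14.5 kb untreated. An untreated-only peak of 1459 bp lay inside Oas1b (chr5:120818588-120820046). The remaining genes of this cluster differed less. Oas3, a long OAS protein that is a main activator of RNase L in human cells, had a start peak of 6718 bp post-caerulein and 7145 bp untreated. Oas2 had no untreated-only peak, and the peak at 1 of its ends was 2898 bp post-caerulein and 5203 bp untreated.

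The Oasl cluster on chromosome 5 held the largest difference in covered length of the 23 regions. Mouse Oasl1 is known to bind the transcript of Irf7 and hold back its translation, and Oasl2 is an OAS-like protein with enzyme activity. Oasl2 (chr5:114896926-114912245) had 4 peaks post-caerulein and 9 untreated, over 14.4 kb post-caerulein and 29.7 kb untreated (-51.7%). Its start peak measured 2558 bp post-caerulein and 7138 bp untreated, at score percentile 65.4 post-caerulein and 88.4 untreated. The untreated peak reached further into the gene, and the promoter was covered in both.

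Oasl1 (chr5:114923143-114937911) had 6 peaks post-caerulein and 11 untreated, over 27.1 kb post-caerulein and 45.1 kb untreated (log2 ratio -0.71). Its start peak was nearly as wide in both, 7183 bp post-caerulein and 8230 bp untreated, and was tied at the common high score of its list in each. All 5 untreated-only peaks of the cluster counted for both genes. The strongest (chr5:114886529-114887914) lay 9.01 kb from Oasl2 at score percentile 55.1, and it was the 1 untreated-only peak that reached the median score of its list. The widest, 2621 bp (chr5:114918600-114921220), ended 0.008 kb short of the post-caerulein peak at the Oasl1 start, so it adjoined H3K27ac seen in both conditions rather than lying apart from it. A further pair lay over the 3' end of Oasl2 and just beyond it.

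**Figure D5:**
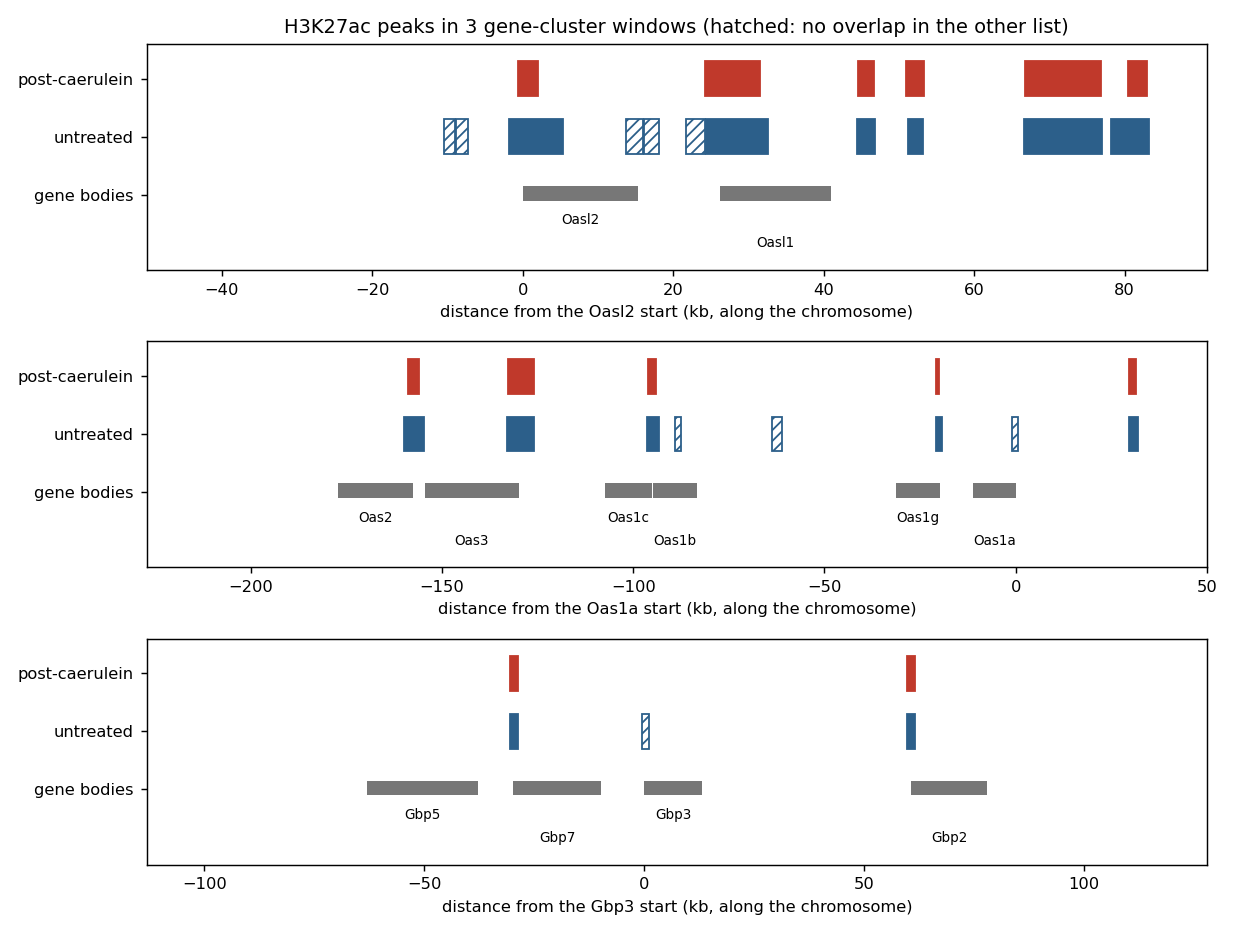
H3K27ac peaks as boxes along 3 cluster windows, drawn to scale by distance in kb along the chromosome from the start of Oasl2 (top), Oas1a (middle) and Gbp3 (bottom), with post-caerulein peaks in red, untreated peaks in blue, peaks without any overlap in the other list hatched, and gene bodies in grey. The hatched boxes are 5 in the Oasl window, 3 in the Oas window and 1 in the Gbp window, and all of them are untreated peaks.

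The guanylate-binding proteins, GTPases that attach to membranes around intracellular bacteria and parasites, were less covered after caerulein at 5 of 5 genes with a median log2 ratio of -0.54. These windows held little H3K27ac in either condition, so the ratios rest on few peaks. Gbp3 (chr3:142560016-142573213) had 2 peaks post-caerulein and 3 untreated, over 3.29 kb post-caerulein and 5.23 kb untreated. Its start carried no post-caerulein peak and an untreated peak of 1758 bp (chr3:142559451-142561208) at score percentile 32.0, which lay over the ISRE core printed above. The same untreated-only peak made up the whole difference in peak number at its neighbours Gbp5 and Gbp7, both with 1.68 kb post-caerulein and 3.47 kb untreated. The Gbp7 start kept a peak of nearly equal width in both lists, at score percentile 32.8 post-caerulein and 56.2 untreated. Gbp2 differed least, with 1.61 kb post-caerulein and 1.76 kb untreated. Gbp9 lies in another cluster and had 5.20 kb post-caerulein and 6.21 kb untreated.

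The IFIT family was mixed, with 3 of 4 genes less covered after caerulein and a median log2 ratio of -0.22. IFIT proteins recognise foreign RNA by its 5' end and block its translation. Ifit1 (chr19:34640889-34650009) had 8 peaks post-caerulein and 6 untreated, over 16.1 kb post-caerulein and 13.6 kb untreated. Its 2 post-caerulein-only peaks lay in Slc16a12, a neighbouring transporter gene, and with a window of 10 kb neither was counted. At its own start Ifit1 followed the other genes in width, with 1738 bp post-caerulein and 2089 bp untreated. The score percentile, each within its own list, was 35.6 post-caerulein and 58.7 untreated. Ifit2 (chr19:34550550-34576534) had 6 peaks post-caerulein and 7 untreated, over 15.9 kb post-caerulein and 19.8 kb untreated. An untreated-only peak of 1134 bp lay inside it (chr19:34556316-34557449), and its start peak was 4213 bp post-caerulein and 4621 bp untreated. Ifit3 and Ifit3b, with log2 ratios of -0.27 and -0.17, had no H3K27ac inside the gene in either list.

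The genes of the ISG15 system, which attaches the ubiquitin-like protein ISG15 to other proteins, were less covered after caerulein at 4 of 4 with a median log2 ratio of -0.26. Isg15 itself had the longest summed start peak of the 26, 19323 bp post-caerulein and 23234 bp untreated, but much of it lay over the neighbouring gene Agrn. The untreated stretch was a single peak over Agrn, Isg15 and Perm1. The post-caerulein list had 2 peaks within 1 kb of the start, of 17226 and 2097 bp, and another of 2178 bp adjoining them. The 17226 bp peak overlapped Agrn and lay 999 bp from the Isg15 start, and the 2097 bp peak covered that start. The window coverage of Isg15 was close, 27.7 kb post-caerulein and 29.0 kb untreated. Usp18, the protease that removes ISG15 and dampens receptor signalling, had 3.15 kb post-caerulein and 6.35 kb untreated (log2 ratio -0.82) with 3 peaks in each list and no peak of 1 list alone. The peak over 1 of its ends was 1450 bp post-caerulein (chr6:121244947-121246396) and 4610 bp untreated (chr6:121244620-121249229), nearly the whole difference. With a window of 100 kb the order at Usp18 turned, with 36.2 kb post-caerulein and 31.96 kb untreated. Trim25 (chr11:88999403-89020294), a ubiquitin ligase that acts on the RNA sensor RIG-I, had 6 peaks post-caerulein and 8 untreated, over 39.8 kb post-caerulein and 51.1 kb untreated. Its start peak, at score percentiles 81.6 post-caerulein and 88.4 untreated, was 15932 bp post-caerulein and 16950 bp untreated. Both of its untreated-only peaks lay inside the gene, 1762 bp (chr11:89014022-89015783) and 3453 bp (chr11:89016129-89019581) wide. Herc6, the main ISG15 ligase of the mouse, had a start peak of 1293 bp post-caerulein and 2889 bp untreated. Its window held 1 peak of each list alone, and the post-caerulein-only peak lay near Lancl2.

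The transcription factor genes differed little in covered length, with log2 ratios from -0.22 to -0.06, lower at 4 of 4. Irf9 (chr14:55603985-55610030), the DNA-binding part of ISGF3, had 9 peaks post-caerulein and 10 untreated, over 27.9 kb post-caerulein and 32.7 kb untreated. Its start peak was 3077 bp post-caerulein and 3439 bp untreated, at score percentile 77.8 post-caerulein and 88.4 untreated. An untreated-only peak of 1559 bp inside Irf9 (chr14:55605382-55606940) lay 0.05 kb from a post-caerulein peak, so it too adjoined shared H3K27ac. Irf1, a factor induced strongly by interferon gamma, had a start peak of 9071 bp post-caerulein and 13162 bp untreated. A separate post-caerulein peak of 4273 bp followed it, and with the 2 merged the Irf1 start peak was not narrower after caerulein. Within 10 kb of Irf1, 19.5 kb were covered post-caerulein and 18.8 kb untreated, so its lower coverage came from farther out. Irf7, which amplifies type I interferon production, had 2405 bp post-caerulein and 2606 bp untreated at the start, and Stat2 had 3596 bp post-caerulein and 4162 bp untreated.

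The cytoplasmic RNA helicases Ifih1 (MDA5, a sensor of long double-stranded RNA) and Dhx58 (LGP2, its regulator) had log2 ratios of -0.30 and -0.20. The Ifih1 start peak was 4183 bp post-caerulein and 4615 bp untreated, and its 1 untreated-only peak lay in the neighbouring gene Gca. The poly(ADP-ribose) polymerase genes Parp9 and Parp14 and the ubiquitin ligase gene Dtx3l, whose product pairs with PARP9, had the median nearest to 0 of the role groups, -0.10, with ratios from -0.17 to -0.10. Parp9 and Dtx3l share a peak, 4555 bp post-caerulein and 5006 bp untreated.

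The other effectors had a median log2 ratio of -0.33, with 7 of 8 less covered after caerulein. Bst2 (chr8:71534255-71537472), also called tetherin, holds budding virus particles at the cell surface. Its window held 7 peaks post-caerulein and 12 untreated, over 29.1 kb post-caerulein and 33.3 kb untreated, and its 3 untreated-only peaks were all weak, at score percentiles from 5.01 to 10.6 of their list. Its start peak was nearly equal, 4296 bp post-caerulein and 4558 bp untreated, at score percentile 68.2 post-caerulein and 88.4 untreated. With peaks of 1 list alone left out, the Bst2 window held 29.1 kb post-caerulein and 28.7 kb untreated. Isg20 (chr7:78913396-78920396), an RNA exonuclease, had 7 peaks post-caerulein and 5 untreated, over 32.2 kb post-caerulein and 31.5 kb untreated. No peak of 1 list alone lay there, its start peak was 10682 bp post-caerulein and 12767 bp untreated, tied at the common high score of each list, and the gene body was covered end to end in both.

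Rsad2 (viperin, which makes a chain-terminating nucleotide) and its neighbour Cmpk2, a nucleotide kinase gene, share a window with 9.91 kb post-caerulein and 13.0 kb untreated. The Rsad2 start peak was 4885 bp post-caerulein and 9895 bp untreated, and the post-caerulein list had another peak of 2578 bp over the stretch that was 1 peak in untreated spheroids. Ifi35 showed a similar difference at the start, 2611 bp post-caerulein and 5457 bp untreated, although its window coverage was close, 24.47 kb post-caerulein and 25.98 kb untreated. The untreated start peak there faced 2 post-caerulein peaks, and the second, of 1972 bp, lay beyond 1 kb from the start. Ifi44 had a single peak in each list, 1416 bp post-caerulein and 2525 bp untreated, and so did Xaf1, a gene linked to apoptosis, with 2181 bp post-caerulein and 2951 bp untreated. Ifi27 had 7.01 kb post-caerulein and 9.38 kb untreated, and both of its untreated-only peaks lay more than 10 kb from the gene, and without them its window held 7.01 kb post-caerulein and 6.97 kb untreated.

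Lower coverage was seen at genes with and without an ISRE core in the promoter window. The 16 genes with the core had a median log2 ratio of -0.33, with 15 less covered after caerulein, and the 14 without had -0.26, with 13 less covered. Elsewhere in the genome genes with the core were near balance. Among the 484 other genes that hold it and have a peak in the window, the median was -0.00 and 50.6% were less covered after caerulein.

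Other genes of the pathway did not all share the direction. Of 50 further interferon-induced genes listed, 48 were found and 45 had a peak. Of these, 31 were less covered and 14 more covered after caerulein, with a median log2 ratio of -0.11, against 48.0% of all genes less covered. Among them 25 start peaks were narrower and 6 wider after caerulein, against 48.2% narrower over all genes marked in both lists. The Ifitm genes, whose products stop viruses from entering the cell, had the most negative ratios, with 4.96 kb post-caerulein and 41.0 kb untreated at Ifitm2, in a cluster whose windows overlap. The largest gains in kilobases were at Irf2, a repressor of interferon responses, with 77.6 kb post-caerulein and 62.5 kb untreated, and at Rtp4, with 11.95 kb post-caerulein and 7.21 kb untreated. Genes upstream of the response leaned the other way from the effectors. Of 12 receptor, kinase and signalling genes, Mavs and Irf3 among them, 10 were more covered and 2 less covered after caerulein. Their median was 0.11, and 52.0% of all genes were more covered. Jak1 led with 22.1 kb post-caerulein and 12.2 kb untreated, then Ifngr1 with 40.3 kb post-caerulein and 30.5 kb untreated. Ifnar2, Il10rb, Ifnar1 and Ifngr2, all more covered, lie in a cluster whose windows overlap. Some gains were slight, with log2 ratios of 0.02 at Ifnar2 and 0.04 at Irf3. No test compares these lists, and each is a count from the same pair of libraries.

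The label of epithelial cells was checked against marker genes. All 10 epithelial and ductal markers were marked at the start, or at an end where no start is given, in both lists, and 0 of 8 acinar, 0 of 4 endothelial and 0 of 6 fibroblast and stellate markers were. Of 10 leukocyte markers Spi1, Cd68 and Cd14 were marked in both lists and Ptprc, the pan-leukocyte gene, in the post-caerulein list alone with a weak peak of 1168 bp, while Adgre1, Csf1r, Itgam, Cd3e and Lyz2 were among those marked in neither. Covered length at the leukocyte markers was lower after caerulein at 4 and higher at 4, with a median log2 ratio of -0.00. It was lower at 3 of 4 endothelial markers (median -0.93) and higher at the 3 of 6 fibroblast and stellate markers that had a peak (median 0.24). That endothelial median rests on little covered length: post-caerulein and untreated, Tek had 0 and 4.13 kb, Cdh5 0 and 1.91 kb, and Kdr 1.08 and 0 kb. Pecam1 had 16.5 and 20.9 kb. Epithelial and ductal markers were lower at 6 and higher at 4 (median -0.02), acinar markers lower at 1 and higher at 4 (median 0.10). The part of such cells in the results was not tested. In a bulk library fewer cells carrying a mark and less of the mark per cell cannot be told apart.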

How the data were processed

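H3K27ac was measured by chromatin immunoprecipitation and sequencing in 1 post-caerulein and 1 untreated library of pancreatic spheroids. Per the submitters' processing notes, the authors used Trimmomatic 0.38, Bowtie2 2.2.6, SAMtools and MACS 1.4 on GRCm38 (mm10). The order of these tools, the caller's options and its control are not given in the sources used here. The deposited lists give a chromosome, start, end, name and score per peak and belong to 1 library each. The score that the authors deposited is not defined by a header and piles up at 1 high value, so it served only to rank or filter peaks within a list. The other deposited columns used, peak start and end, were turned into 1-based positions.

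Gene bodies, starts and promoters came from RefSeq tables of GRCm38.p6, and 8 of the 38 genes had no RefSeq start there. Peaks were compared with Python 3.11.15, pandas 2.3.3 and numpy 2.4.6, and overlaps were checked with bedtools 2.31.1 and on simulated peaks. Windows reached 50 kb beyond the body, sharing needed 1 bp, and ratios took a pseudocount of 1 kb. A start peak is the sum of peaks within 1 kb of the first start. Exact (Clopper-Pearson) intervals are at 95%. With 1 library per condition no test was run, and counts stand beside the same share of all genes. Genes described in full had a peak of 1 list alone within 5 kb of the body, were among the 6 largest differences in covered length in a direction, or were marked at the start in 1 list alone. The genes, lists and rules were chosen with earlier results of these data known. Alternatives covered the window, the score, sharing, the pseudocount, the ratio and the start. The count of genes less covered, the count of narrower start peaks, and their alternatives were chosen after seeing the data.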

Additional observations from a re-analysis of the deposited data

How the results depend on the processing

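No paired analysis was possible because a condition is a single library. Under the alternatives listed in processing the median log2 ratio kept its sign, but single genes changed direction. For the counts no reversal was defined, so they could only stay close or move. Members less covered after caerulein ranged from 32 to 36 of 38 (28 of 30 without the Oas and Oasl windows). Beside Isg20 and Ifit1, the log2 ratio was above 0 for Irf1 at 10 kb (0.05), for Usp18 (0.17), Ifi35 (0.41) and Ifit3b (0.11) at 100 kb, for Bst2 at the score limit given next (0.11), and for Bst2 (0.02) and Ifi27 (0.01) with peaks of 1 list alone left out. At that score limit Oas1a, Oas1g, Gbp2 and Gbp9 had no peak left, while Isg20 was less covered. The start was marked in both lists at 23 to 34. The counts of peaks in 1 list alone were the least stable. Genes with more post-caerulein-only peaks numbered 0 with a window of 10 kb, 6 with 100 kb and 0 under a score limit (peaks not below their own list's median score). Genes with more untreated-only peaks numbered 11 at 10 kb, 2 at that score limit and 11 without the Oas and Oasl windows. Post-caerulein-only peaks numbered 0 at 10 kb, 18 at 100 kb and 0 at the score limit. Untreated-only peaks numbered 32 at 100 kb, 1 at the score limit, 12 with peaks merged within 1 kb and 13 without the Oas and Oasl windows. At the score limit Ifit1 was the 1 gene covered at least 1.5-fold more after caerulein. Genes covered at least 1.5-fold more in untreated spheroids numbered 4 with a pseudocount of 5 kb, 3 at a ratio of 2, 3 with peaks of 1 list alone left out and 3 without the Oas and Oasl windows. The median log2 ratio was -0.17 with peaks of 1 list alone left out. Beyond those that narrow the window, the peaks or the genes by construction, the cause was not tested. Leaving out those peaks, leaving out the Oas and Oasl windows and merging peaks for start widths were chosen after seeing the data. Unknown depth limits all widths and all peaks of 1 list alone, since weak peaks may fall under the caller's threshold in 1 library.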
